A study of Mus musculus with 4 samples.

Results

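A set of 49 transcripts, out of 21163 listed, was strongly under-represented among the RNAs recovered with the protein NONO from mouse primary hepatocytes, in control and in proline-treated cells alike. The members were chosen by their own measured values in all 4 libraries. On the scale log2(FPKM + 1), the NONO immunoprecipitate (IP) had to lie at least 2 below its input in control and again in proline, the inputs of proline and control had to differ by less than 1, and the mean of both inputs had to reach 5 FPKM. FPKM are fragments scaled to the length of the transcript and the depth of the library, and the 1 added to them keeps values near 0 on the scale but makes changes of low transcripts look smaller. The input criteria were met by 7388 transcripts, which served as the background for everything below, and all 49 members lie among them by construction.

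NONO is an RNA-binding protein that, with its partners SFPQ and PSPC1, is built into paraspeckles on the long non-coding RNA NEAT1. Paraspeckles are nuclear bodies known for holding certain RNAs in the nucleus, away from ribosomes. In RNA immunoprecipitation with sequencing (RIP-seq), RNA that stays with the protein is enriched over the lysate, and RNA that is not held is carried along only in traces, so a low ratio of IP to input marks RNA that the antibody recovered poorly relative to all other RNA.

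The study had 4 groups of 1 library each: the control input, the control NONO IP, the proline input and the proline NONO IP. The input is a portion of the same cell lysate set aside before the antibody was added. The cells were labelled as mouse primary hepatocytes, which are taken directly from the organ and are not a cell line, and the treated groups differ from the controls by proline alone as far as the labels go. The sources used here do not give strain, age, proline dose or treatment time, and no IP with a non-specific antibody was analysed here. With 1 library a group there was no replicate error to set a difference against, so no test was run and each comparison is one between libraries. The deposited tables give Ensembl transcript identifiers without gene symbols, and the gene table at hand holds an Ensembl identifier for 0 of its 49997 genes, so the members are named by identifier, and neither their functions nor hepatocyte markers could be read.

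The libraries differed widely in depth. The inputs held 22188003 reads in control and 20826758 in proline, and the IPs 1786928 and 954824. A transcript of 3000 nt at 1 FPKM therefore stood for 66.6 reads in the control input, 62.5 in that of proline, and 5.36 and 2.86 in the respective IPs. A single transcript, ENSMUST00000038863, took 8.19% of the control IP reads and 17.4% of the proline IP reads, and its part in the members' low IP shares is shown with the scalings below.

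As a group the 49 members made up the same small share of both lysates and a far smaller share of both IPs. They held 0.559% of the reads in the control input and 0.560% in the proline input. Among IP reads their share was 0.0951% in control, on 1700 reads, and 0.0915% in proline, on 874. The summed share was 5.87 times lower in the control IP than in its input (95% counting interval 5.60 to 6.17) and 6.12 times lower in the proline IP (5.73 to 6.55). Intervals here are exact (Clopper-Pearson) and cover counting error only. PCR copies and differences between cultures lie outside them, and they take no account of the members having been picked for low IP values.

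The median member stood at 18.5 FPKM in lysate and 2.06 FPKM with NONO in control cells, and at 18.4 and 1.59 FPKM in proline cells. The background had like input levels, with medians of 17.04 FPKM in control and 16.4 FPKM in proline, but its IP medians were 14.1 and 12.6 FPKM. The median log2 difference of IP and input was -2.48 for the members in control, from -4.75 to -2.01, and -0.38 for the background. In proline it was -2.50 for the members, from -4.79 to -2.03, and -0.45 for the background. In all 49 members the higher of the IP values lay below the lower of the input values, and in 38 it lay below 0.25 of it. All of these values were fixed or bounded by the choice of members and are given as a description only.

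**Figure D1:**
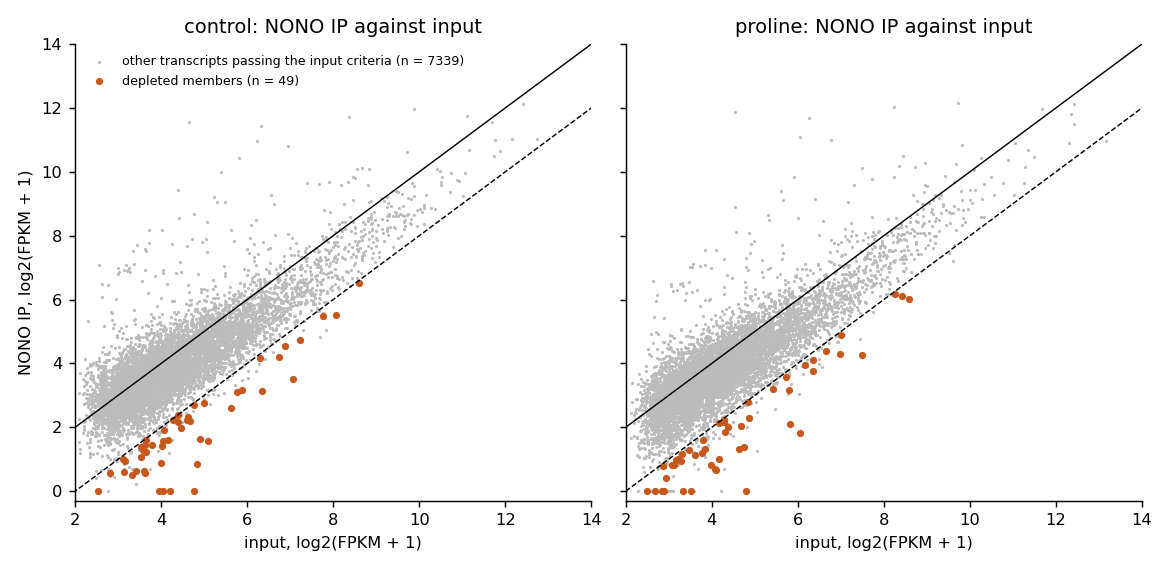
NONO IP against input on the log2(FPKM + 1) scale, in control on the left and in proline on the right, with 1 point per transcript. The 49 members lie under the dashed line, which marks a difference of -2, in both panels, while most of the other 7339 transcripts that met the input criteria lie close below the solid line of equal values.

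Strong depletion was rare in either condition. In control 108 of the 7388 background transcripts (1.46%) lay at or below -2, and in proline 164 (2.22%). The 49 that did so in both (0.663%) are 45.4% of the control list and 29.9% of the proline list. The transcripts past -2 in one condition were mostly low in the other condition too. In proline, 57 of the 59 that passed in control alone were below 0, 46 of them at or below -1, and their median was -1.47. Of all background transcripts 73.7% were below 0 in proline and 21.5% at or below -1. In control, 113 of the 115 that passed in proline alone were below 0, 80 of them at or below -1, and their median was -1.26. The background shares there were 70.5% and 18.6%.

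The first 10 members by mean input held 63.1% of the members' control input reads, although short ones among them had few IP reads. Their inputs exceeded their IPs 4.27 to 12.7 times in control and 4.23 to 9.77 times in proline. ENSMUST00000027232, of 4129 nt and the most abundant, stood at 384 FPKM in lysate and 90.0 FPKM with NONO in control cells, and at 343 and 68.0 FPKM in proline cells. Its IP values rested on 664 and 268 reads, the most of any member. The input was 4.27 times the IP in control (3.95 to 4.62) and 5.05 times in proline (4.48 to 5.72), so this transcript was among the less strongly depleted members and yet by far the most precisely measured.

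A pair of short transcripts followed. ENSMUST00000089377, of 800 nt, stood at 214 FPKM in lysate and 44.1 FPKM with NONO in control cells, and at 384 and 64.1 FPKM in proline cells. ENSMUST00000001051, of 731 nt, stood at 268 and 45.2 FPKM in control cells and at 303 and 71.6 FPKM in proline cells. For both, the higher IP value lay well under the lower input value. The input of ENSMUST00000089377 was 4.87 times its IP in control (3.79 to 6.35) and 5.98 times in proline (4.52 to 8.09). For ENSMUST00000001051 the ratios were 5.93 (4.59 to 7.81) and 4.23 (3.20 to 5.70).

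The fourth, ENSMUST00000112175, combined high abundance with strong depletion. This transcript of 864 nt stood at 132 FPKM in lysate and 10.4 FPKM with NONO in control cells, and at 178 and 18.2 FPKM in proline cells. Its input was 12.7 times the IP in control (7.82 to 22.3) and 9.77 times in proline (5.91 to 17.5), on 16 and 15 IP reads where equal representation would have given 203.6 and 146.5. It was the only one of the first 10 whose log2 difference passed -3 in both conditions, at -3.55 and -3.22.

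The next 4 were less depleted, with inputs 4.51 to 6.69 times their IPs. ENSMUST00000050328, of 3647 nt, stood at 149.8 FPKM in lysate and 25.3 FPKM with NONO in control cells, and at 128 and 28.4 FPKM in proline cells. ENSMUST00000029912, of 2745 nt, stood at 117 and 22.4 FPKM in control and at 101 and 19.8 FPKM in proline. In both the lysate level was somewhat lower in proline. Their IPs did not differ between the conditions beyond counting error. The proline to control ratio of the IPs was 1.12 for the former (0.866 to 1.449) and 0.885 for the latter (0.6235 to 1.241). ENSMUST00000028817, of 1518 nt, stood at 77.2 and 17.0 FPKM in control and at 125 and 18.6 FPKM in proline, so its lysate level was higher in proline while its IP was nearly level. ENSMUST00000029845, of 3764 nt, stood at 106 and 17.4 FPKM in control and at 80.7 and 16.1 FPKM in proline.

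The last of the 10 were short and rested on few IP reads. ENSMUST00000166931, of 506 nt, stood at 79.7 and 7.74 FPKM in lysate and IP of control and at 71.1 and 14.5 FPKM in those of proline, on 7 IP reads each. ENSMUST00000030651, of 743 nt, stood at 52.9 and 7.53 FPKM in control and at 80.9 and 12.7 FPKM in proline, on 10 and 9 IP reads. Their IP values in control and in proline could not be told apart at this depth: the proline to control ratio of the IPs was 1.87 for the first (0.560 to 6.25) and 1.68 for the second (0.606 to 4.61).

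**Figure D2:**
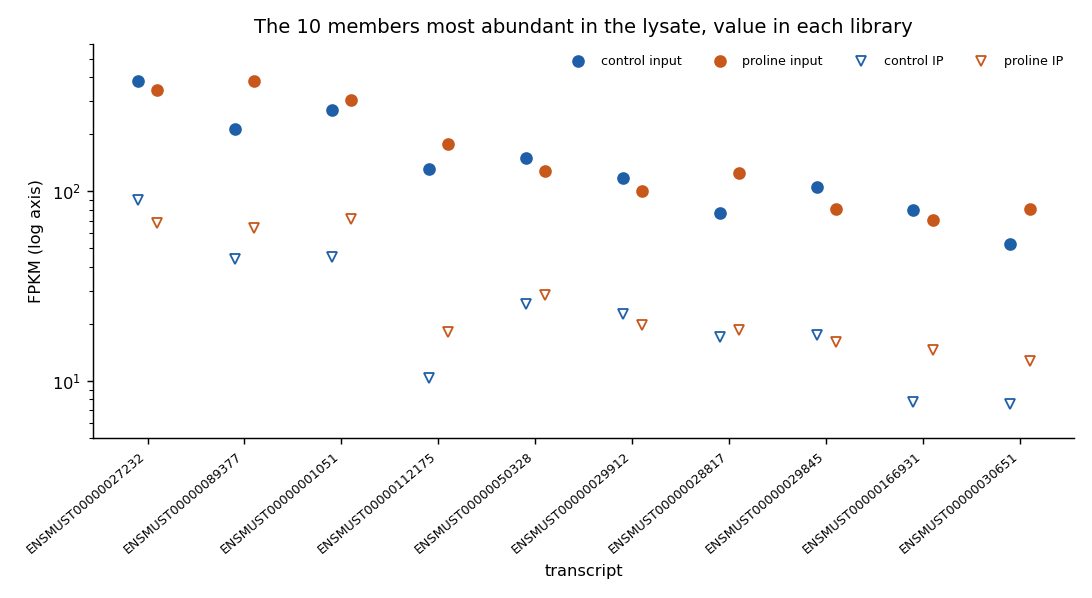
FPKM of the 10 members with the highest mean input, on a log axis, with filled circles for the inputs and open triangles for the IPs of control (blue) and proline (orange). Each transcript has 1 value per library, and in all 10 both IP values lie below both input values, from 90.0 against 343 FPKM for ENSMUST00000027232 down to 12.7 against 52.9 FPKM for ENSMUST00000030651.

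The strongest depletion was also sought among the 13 members for which equal representation would have given at least 100 reads in each IP. Averaged over control and proline, ENSMUST00000093962 and ENSMUST00000029574 had the lowest log2 differences there, at mean inputs of 49.2 and 41.4 FPKM. Both rested on few IP reads, and in control and in proline alike their intervals overlap that of ENSMUST00000112175. ENSMUST00000093962, of 3740 nt, stood at 33.1 FPKM in lysate and 1.95 FPKM with NONO in control cells, and at 65.3 and 2.52 FPKM in proline cells. Its input was 17.0 times the IP in control (9.92 to 32.0) and 25.9 times in proline (13.6 to 56.7), on 13 and 9 IP reads. Among the 7388 background transcripts it ranked as number 7 in control and number 2 in proline by the log2 difference.

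ENSMUST00000029574, of 3469 nt, was next. It stood at 27.3 FPKM in lysate and 0.807 FPKM with NONO in control cells, and at 55.4 and 3.32 FPKM in proline cells, on 5 and 11 IP reads. Its input was 33.9 times the IP in control (14.5 to 104.5) and 16.7 times in proline (9.31 to 33.4). It also lay at the edge of the input criterion, with a log2 input difference of 0.99, and its FPKM in the proline input was 2.02 times that in the control input (1.92 to 2.14).

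Among the longest members the depletion was even between the conditions. ENSMUST00000226068, of 6633 nt, stood at 57.6 FPKM in lysate and 7.93 FPKM with NONO in control cells, and at 54.1 and 8.05 FPKM in proline cells, with 94 and 51 IP reads. ENSMUST00000115426, of 10408 nt and the longest, stood at 21.1 and 2.96 FPKM in control and at 18.9 and 2.62 FPKM in proline. ENSMUST00000114157, of 6357 nt, stood at 23.6 and 4.05 FPKM in control and at 18.4 and 3.46 FPKM in proline. All 3 thus had lower lysate levels in proline than in control, by less than the rule's limit. The input was 7.26 and 6.72 times the IP in control and proline for the first, 7.13 and 7.24 times for the second and 5.84 and 5.31 times for the third.

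In 7 members the log2 difference was at most -3 in control and in proline: ENSMUST00000112175, ENSMUST00000093962, ENSMUST00000029574, ENSMUST00000092163, ENSMUST00000098657, ENSMUST00000196979 and ENSMUST00000239028. Their mean inputs ranged from 15.3 FPKM for ENSMUST00000239028 to 155 FPKM for ENSMUST00000112175. The counting interval of IP over input lay wholly below 0.25 in both conditions for 11 background transcripts (0.149%), all of them members. It lay wholly below 0.5 in both for 286 background transcripts (3.87%), of which 41 were members. In control it lay below 0.25 for 26 members, against 0.555% of the background, and in proline for 16, against 0.365%. The rule used the same values, so nothing is read from these shares.

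**Figure D3:**
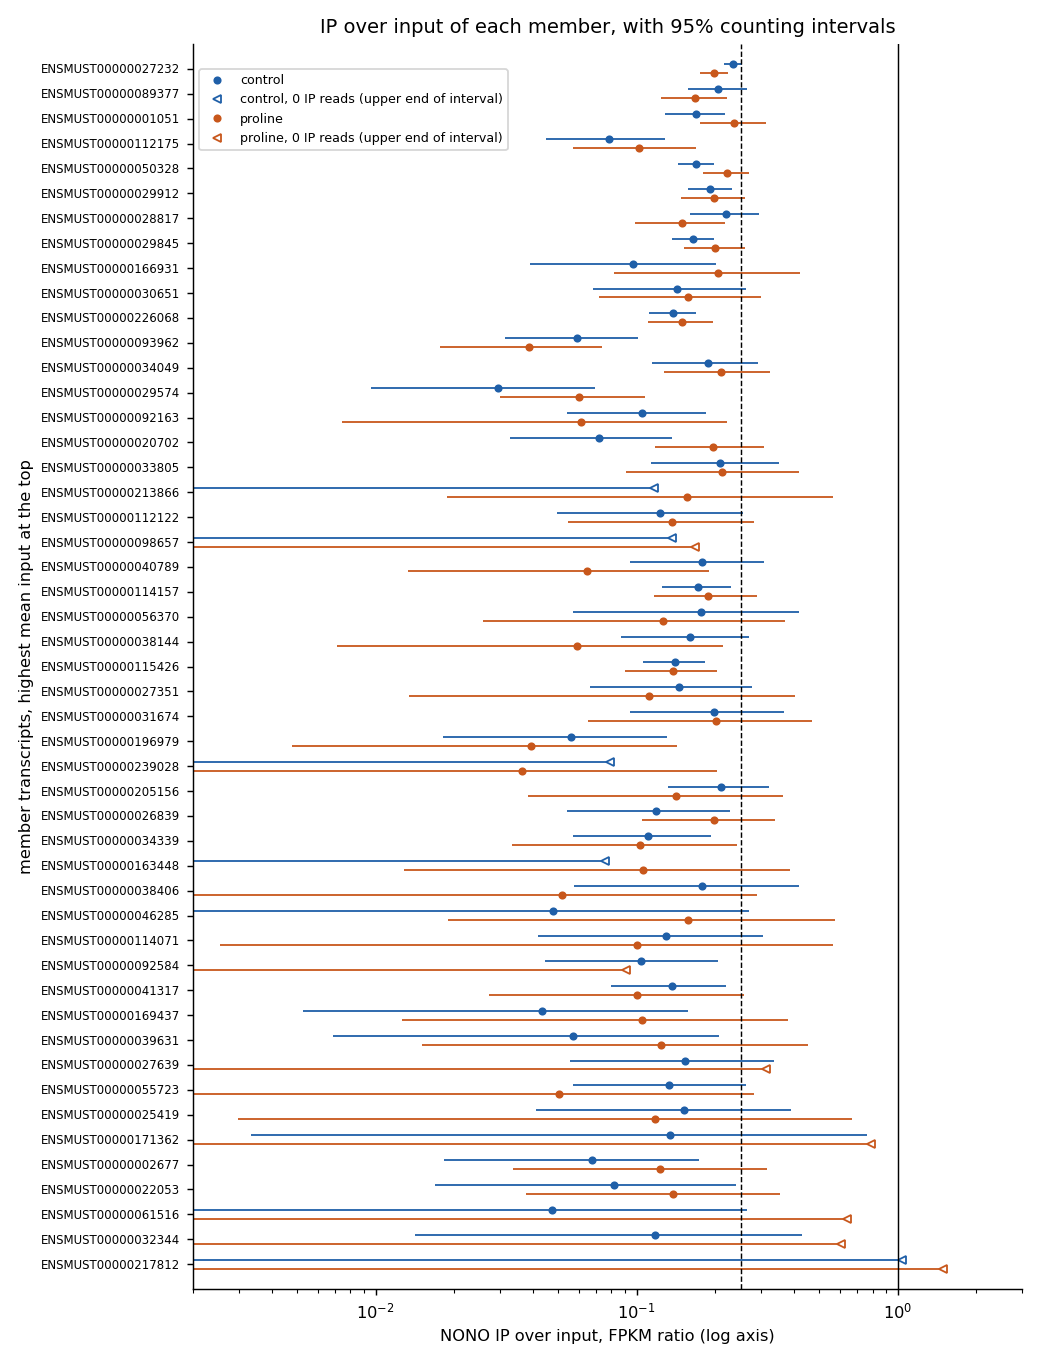
FPKM ratio of NONO IP over input for each of the 49 members, on a log axis, in control (blue) and in proline (orange), sorted by mean input with the highest at the top. Horizontal lines are 95% counting intervals, open triangles mark the upper end where the IP had 0 reads, the dashed line is at 0.25 and the solid line at 1. All filled points lie below 0.25, the intervals widen towards the bottom, and those of ENSMUST00000217812 reach past 1.

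Many of the members' IP values rested on very few reads. The median member had 9 IP reads in control and 4 in proline, and 12 members had at least 10 reads in both. Equal representation would have given medians of 72.1 and 34.3 reads. Most members were therefore far below the number of reads expected, on read numbers too small to rank them against each other. Among the 12 with at least 10 reads in both IPs, the input was 4.27 to 12.7 times the IP in control, with a median of 5.88, and 4.23 to 9.77 times in proline, with a median of 5.19.

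Of the 10 members listed at 0 in at least 1 IP, 3 were at 0 in control alone, 5 in proline alone and 2 in both. ENSMUST00000098657, of 869 nt, stood at 17.6 and 26.7 FPKM in the lysates of control and proline and had 0 reads in both IPs, where equal representation would have given 27.3 and 22.2 reads. Taking 3 reads per library as what a count of 0 allows, its IP was at least 9.10-fold lower than its input in control and at least 7.40-fold lower in proline. The exact two-sided interval is wider and reaches down to 7.36 and 5.99 times. ENSMUST00000217812, of 437 nt and the shortest member, was at 4.74 and 6.15 FPKM in the inputs and also at 0 in both IPs. Equal representation would have given it 3.70 and 2.57 reads, so its depletion was not detectable at this depth, and its counting interval included a ratio of 1 in both conditions. It was the only member for which that held.

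ENSMUST00000171362, of 551 nt, was a similar case. It stood at 7.61 FPKM in lysate and 1.02 FPKM with NONO in control cells, on 1 read, and at 9.06 and 0 FPKM in proline cells. The input was 7.49 times the IP in control, with an interval from 1.31 to 299. Its proline IP was at least 1.59-fold lower by the same 3 reads. ENSMUST00000061516 and ENSMUST00000032344, also at 0 in proline alone, had as little behind them, with 5.87 and 6.19 reads under equal representation and bounds of at least 1.96-fold and 2.06-fold. ENSMUST00000027639 had 11.9 such reads and was at least 3.96-fold lower, and ENSMUST00000092584, of 4048 nt, had 40.5 and was at least 13.5-fold lower. The exact intervals in proline reach further down, to 1.27, 1.568, 1.655, 3.196 and 10.96 times for these members in the order named. The 3 members at 0 in control alone had 31.7 to 48.8 reads under equal representation in that condition. ENSMUST00000239028, ENSMUST00000163448 and ENSMUST00000213866 were at least 15.6-, 16.3- and 10.6-fold lower in that IP by 3 reads, or 12.6, 13.2 and 8.56 times at the end of the exact interval. In proline their IPs stood at 0.582, 1.19 and 3.07 FPKM, on 1, 2 and 2 reads. The counting intervals there reach down to inputs of 4.935, 2.592 and 1.767 times the IPs.

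The level left in the IP was set beside that of the 4446 transcripts listed at 0 in both inputs, so that their IP values show what appears there without any read in the lysate. Of these, 95% lay at or below 2.35 FPKM in the IP of control and at or below 2.05 FPKM in that of proline. At or below that level lay 27 of the 49 members in control, 26 in proline and 21 in both. Of the 7388 background transcripts 1.61% lay there in control, 2.29% in proline and 0.826% in both. The rule bounds each member's IP by its input, so the members' larger shares are tied to their choice. They are a description only. The level is the upper end of the 0-input transcripts, and at their median, 0.520 FPKM in control and 0 in proline, or below it lay only 8 and 7 members. The 17 members above that level in both IPs include all of the first 10 by abundance.

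The members' lysate levels differed between proline and control in both directions, within the limits the rule set. The log2 input difference, proline minus control, was above 0 for 23 and below 0 for 26, with a median of -0.09 and a range from -0.96 to 0.99. The background had a median of -0.08. At the depth of the inputs 40 of the 49 differences were beyond counting error, 16 (32.7%) higher and 24 (49.0%) lower in proline. The background had 32.6% higher and 46.7% lower, so the members' shares were near those of all transcripts. With 1 library a side the spread between cultures is unknown, and fewer cells of a type and less RNA per cell cannot be told apart in lysates of this kind.

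In the IPs the members' change between the cultures was mostly within counting error. The log2 IP difference was above 0 for 24 and below 0 for 23 and had a median of 0, with quartiles at -0.64 and 0.65. In the background 2600 were above 0 and 4786 below, with a median of -0.14. For 44 of the 49 the counting interval of the proline to control ratio included 1. In the background it lay above 1 for 5.12% and below 1 for 16.1%, on a median of 74 control and 36 proline IP reads. Among the members it lay above 1 for 4. ENSMUST00000001051 stood at 1.59 (1.07 to 2.35), on 59 control and 50 proline IP reads. ENSMUST00000026839 stood at 2.70 (1.07 to 7.165), on 9 and 13. ENSMUST00000029574 stood at 4.12 (1.32 to 15.1), on 5 and 11, and ENSMUST00000020702 at 3.95 (1.70 to 9.92), on 9 and 19. The interval lay below 1 for ENSMUST00000027232 at 0.755 (0.653 to 0.872). Across the 49 members the IP difference and the input difference correlated with Pearson's r = 0.56 and Spearman's rho = 0.58, against 0.25 and 0.27 across the background. These are across transcripts of the same 4 libraries, which are not independent, and the rule ties each IP to its input.

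**Figure D4:**
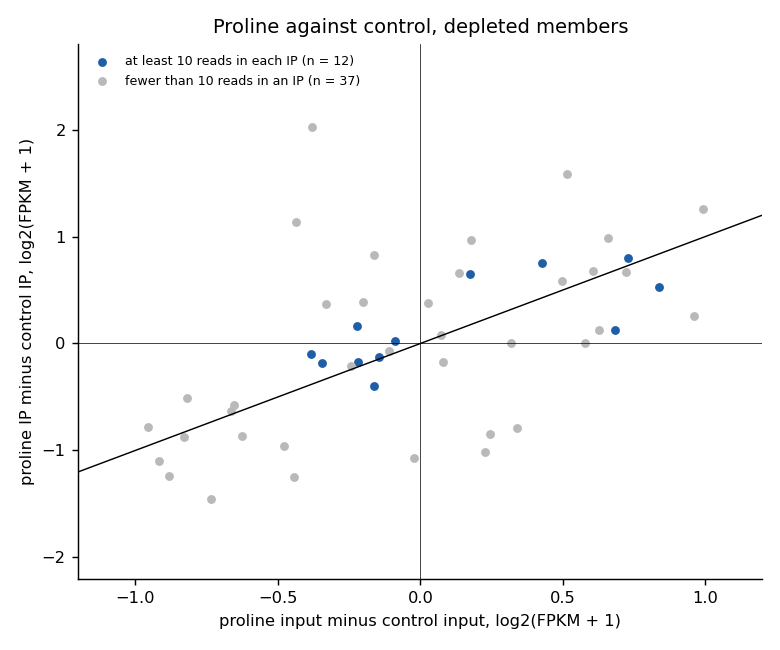
Proline minus control in the NONO IP (vertical) against proline minus control in the input (horizontal), both on the log2(FPKM + 1) scale, for the 49 members. The 12 members with at least 10 reads in each IP (blue) lie near the line of equal change, and the 37 with fewer (grey) scatter widely, up to 2.02 for ENSMUST00000213866.

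The change in NONO enrichment, the comparison of proline with control that the design allows, stayed below 1 in size for the 12 members with at least 10 reads in both IPs. It is the log2 difference of IP and input in proline minus that in control, and since the rule bounds both, it is given without a test. Its median was 0.03 over the 49 members and -0.07 over the background. Among those 12 it ran from -0.55 for ENSMUST00000028817 to 0.48 for ENSMUST00000001051. As a ratio, enrichment in proline over control was 0.686 for the first (0.427 to 1.10) and 1.41 for the second (0.964 to 2.05). These intervals come from the normal approximation for log ratios, after adding 0.5 to every read number.

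A change of at least 1 in size was found for 7 members (14.3%) and for 6.96% of the background, and each of these 7 had fewer than 10 reads in an IP. The interval of the ratio included 1 for 46 members. It excluded 1 for 28.4% of the deeper-read background and for 3 members (6.12%). These were ENSMUST00000027232 at 0.846 (0.734 to 0.976), ENSMUST00000050328 at 1.31 (1.02 to 1.69) and ENSMUST00000020702 at 2.67 (1.22 to 5.80). The last, of 2421 nt, stood at 29.1 FPKM in lysate and 2.08 FPKM with NONO in control cells, and at 41.9 and 8.22 FPKM in proline cells, on 9 and 19 IP reads. Its IP was higher in proline by more than its input was, and in both conditions it lay far below the input.

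The members nearest the threshold did not stand apart from those just beyond it. In the less depleted condition the 5 closest members inside it lay between -2.06 and -2.01. ENSMUST00000205156 came nearest, at 20.1 and 4.23 FPKM in lysate and IP of control and at 10.2 and 1.44 FPKM in those of proline, with log2 differences of -2.01 and -2.19. The 5 closest outside lay between -1.996 and -1.987. ENSMUST00000040135 was the first of these, at 17.2 and 1.31 FPKM in control and at 12.7 and 2.44 FPKM in proline, with log2 differences of -2.98 and -1.996. Another 805 background transcripts lay at or below -1 in both conditions without being members, so that the 49 are the far end of a continuous range.

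Transcript length, which the rule did not use, was lower among the members as a whole. The members had a median length of 1925 nt, with quartiles at 1316 and 3469 nt, and the background one of 2838 nt, with quartiles at 1750 and 4362 nt. Members made up 1.45% of the background transcripts under 1000 nt (9 of 620), 0.998% of those from 1000 nt (17 of 1703), 0.558% of those from 2000 nt (16 of 2866), 0.324% of those from 4000 nt (6 of 1853) and 0.289% of those of 8000 nt or more (1 of 346). The share thus fell from class to class. The difference in length was not seen at every input level. At mean inputs of 5 to 10 FPKM the median was 1664 nt for members and 3063.5 nt for the background. It was 2037 and 3144 nt at 10 to 20 FPKM, and 1992 and 2817 nt at 20 to 50 FPKM. At 50 to 100 FPKM it was 2253.5 and 2134 nt (4 members), and at 100 FPKM or more 1518 and 1602 nt (7 members).

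Short transcripts have fewer reads, and depth moved with this result. Restricted to transcripts for which equal representation would give at least 20 reads in each IP, the medians were 2583 nt for 34 members and 3238 nt for 5982 background transcripts. The share of members in the same length classes was then 1.79%, 0.739%, 0.546%, 0.327% and 0.289%, on 6, 8, 13, 6 and 1 members. The mirror set of 57 background transcripts at least 2 higher in both IPs had a median length of 3946 nt, or 4421 nt for the 47 of them with 20 expected reads. These lengths are recovered from the FPKM values and are set side by side without a test, since transcripts are not replicates.

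**Figure D5:**
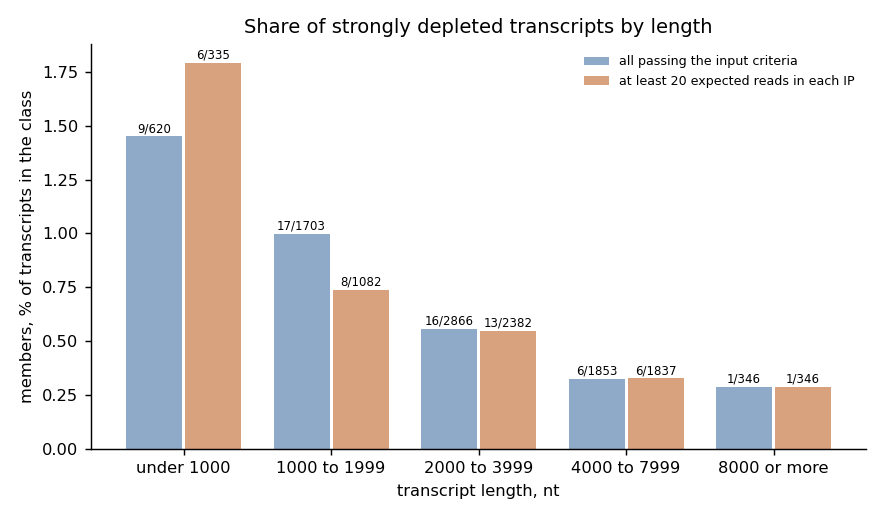
Members as a percentage of the background transcripts in each class of transcript length, for all 7388 (blue) and for those with at least 20 expected reads in each IP (orange), with members over transcripts above each bar. The percentage falls from 1.45% under 1000 nt to 0.289% at 8000 nt or more.

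By abundance, the members were spread over all classes. The 1 added to FPKM limits how far a transcript of low input can fall, so the shares in the low classes are tied to the rule. They made up 0.510% of the background transcripts with a mean input of 5 to 10 FPKM (10 members), 0.616% of those at 10 to 20 FPKM (14), 0.712% of those at 20 to 50 FPKM (14), 0.617% of those at 50 to 100 FPKM (4) and 1.29% of those at 100 FPKM or more (7). The background's own median log2 difference also fell with abundance, from -0.08 in the lowest class to -0.85 in the highest in control and from -0.23 to -0.74 in proline. Members of the highest class therefore lay closer to their neighbours: their medians were -2.33 in control and -2.32 in proline.

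FPKM are shares of a library, so a member's difference depends on what else the IP holds. Over all transcripts whose inputs averaged 5 FPKM or more, the IPs had median log2 differences of -0.36 in control and -0.47 in proline. Measured from these medians, 17 of the 49 still lay at or below -2 in both conditions. With the most-read IP transcript, ENSMUST00000038863, left out of the library totals, 34 did so. ENSMUST00000112175, ENSMUST00000030651, ENSMUST00000226068, ENSMUST00000093962, ENSMUST00000092163 and ENSMUST00000098657 met the rule under each of 5 alternatives: equal FPKM totals, centred differences, totals without that transcript, and a pseudocount of 0.5 or of 5. These alternatives use the same reads and do not address counting error. ENSMUST00000092163 had 12 IP reads in control and 2 in proline, where its input was 16.3 times the IP (4.495 to 134.8). ENSMUST00000098657 had 0 in both IPs.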

How the data were processed

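The authors deposited 1 table of FPKM per library. The submitters' processing notes name the builds GRCm38 and mm10, and the sources used here do not give the aligner, the counting tool or the annotation release. FPKM were used as deposited, with no further filter, in Python 3.11.15 (pandas 2.3.3, NumPy 2.4.6, SciPy 1.17.1). Library totals were recovered from the steps of the lowest FPKM values of each library, taken as 1 read each. The largest total giving whole transcript lengths was used. Whole read numbers and transcript lengths were then the smallest whole numbers giving all of a transcript's values. All 20230 transcripts above 0 had such a solution, which is too small where the true values have a common divisor. This recovery was checked on simulated data. A read may be a single read or a fragment.

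The members and lists were chosen with earlier results of these data known. Gene lists by function and cell type could not be read, because no identifier was paired with a gene name. Named transcripts were members with the highest input, the lowest differences at 100 or more expected IP reads, 0 in both IPs, extreme length or extreme change in enrichment at 10 or more IP reads, and those nearest the threshold. ENSMUST00000092163, ENSMUST00000196979, ENSMUST00000239028, ENSMUST00000163448, ENSMUST00000213866, ENSMUST00000061516, ENSMUST00000032344, ENSMUST00000027639, ENSMUST00000092584, ENSMUST00000026839 and ENSMUST00000020702 were named after their values were seen. No test was run, with 1 library a group. Alternatives covered pseudocount, scaling, input filter, threshold and interval.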

Additional observations from a re-analysis of the deposited data

How the results depend on the processing

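The number of members depended on the settings. The rule keeps the medians of IP minus input below 0 under each alternative. Of 44 values under 13 alternatives, 31 stayed within 0.1 on the log2 scale, 10% of length or 1.5 times the count, and 13 moved. A pseudocount of 5 left 12 transcripts, all of them members, with medians of -2.29 in control and -2.27 in proline; a pseudocount of 0.5 moved the proline median to -2.67. Centred differences left 17 members, with a proline median of -2.69. A mean input of at least 20 FPKM left 25. A threshold of -1 gave 854 transcripts and one of -3 gave 7. Chosen after seeing the data, the FPKM ratio without a pseudocount gave 77 transcripts, all 49 members among them, with medians of -2.83 and -2.87, and requiring 20 expected reads in each IP raised the median length from 1925 to 2583 nt. Depth limits each member's value: 37 of the 49 had fewer than 10 reads in an IP. No fit paired by replicate could be run, as each group had 1 library.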

Other observations

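Outside the 49 members, 16 transcripts whose inputs averaged 5 FPKM or more were at or below -2 in both conditions but had inputs that differed by 1 or more on the log2 scale. In 13 of them the input was higher in proline and in 3 it was lower. The shares of higher and lower inputs among all transcripts of that input minimum were not worked out, so nothing is read from this split. Of the 13, 10 were under 600 nt, a limit chosen after their values were seen, with lengths from 201 to 572 nt. In these 10 the proline input was 2.32 to 3.33 higher than the control input on the log2 scale, with medians of 66.6 and 8.03 FPKM. Their IPs held 0 to 4 reads in control and 0 to 8 in proline. ENSMUST00000104941, of 201 nt, stood at 42.4 FPKM in lysate and 2.78 FPKM with NONO in control cells, and at 215 and 5.21 FPKM in proline cells, on 1 read in each IP. ENSMUST00000102971, of 391 nt, stood at 26.9 and 1.43 FPKM in control and at 177 and 16.1 FPKM in proline. The same input minimum was met by 8495 transcripts of any length, and in 7388 of these the inputs differed by less than 1. Of the 178 among the 8495 that were under 600 nt, 43 had an input at least 1 higher in proline. Of the 3 with a lower input in proline, ENSMUST00000034992, of 3995 nt, was the most abundant, at 146 and 12.5 FPKM in lysate and IP of control and at 65.6 and 12.3 FPKM in those of proline, on 89 and 47 IP reads. These transcripts were likewise picked by their values, and the cause was not tested.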
